A study of Mus musculus with 8 samples.

Results

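The genes followed here were those of the lysosome, of the vacuolar proton pump (V-ATPase) and of the trafficking machinery that carries cargo to lysosomes and vacuoles, in RNA-Seq of mouse notochord-derived cells (NDCs). They were chosen by name, with earlier results of these data known. The 57 names listed matched 56 of the 43346 gene identifiers in the count files, and 52 of these 56 genes had enough reads to be among the 15467 genes tested. The name Atp6v0a3 matched no identifier, and the a3 subunit it stands for is encoded by Tcirg1, which was listed as well. Atp6v0a4, Atp6v0d2, Atp6v1b1 and Atp6v1c2 did not pass the filter on low counts and are described by their levels only.

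The samples were 4 litters at embryonic day 12.5 (NDP10.2, NPD3, NPD4 and NPD9.2) and 4 litters at postnatal day 0 (NPD26, NPD27, NPD28 and NPD30), and values of a stage are given below in that order of litters. All animals carried Shh-cre and ROSA:YFP, so that YFP marks any cell that has expressed Shh and its descendants, and about 6 animals of a litter were pooled into 1 sample. At E12.5 whole notochords were dissected and not sorted, and at P0 cells of the nucleus pulposus (NP) were dissociated from lumbar and thoracic discs and sorted for YFP, so stage and isolation method cannot be told apart. The comparison asks how mRNA abundance differs between the notochord and the NP that forms from it.

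Reads on genes numbered from 4442775 to 7180221 in the E12.5 litters and from 6371842 to 8904050 in the P0 litters, and 3 counts, taken as the floor of detection, correspond to 0.337 to 0.675 CPM, the counts scaled to a common library size. This floor covers counting error only. The label was checked against 9 notochord and NP markers. Their mean log2 CPM ranged from 5.74 to 7.16 in the E12.5 litters and from 5.15 to 6.70 in the P0 litters. These genes did not move together. On the log2 scale Krt19 and Cd24a were higher at P0 by 1.74 and 1.33, whereas Shh and Foxa1 differed by -7.14 and -2.23. T, Foxa2, Krt8 and Krt18 did not pass the test used below, and Noto was at most 0.433 CPM in any litter. Markers of other cells moved with stage too. The summed CPM of 9 macrophage genes ranged from 74.3 to 187 at E12.5 and from 306 to 7634 at P0. The lowest P0 sum was that of NPD30, in which Lyz2 alone stood at 244 CPM. The mean log2 CPM of the list in NPD30, 2.86, lay inside the E12.5 range of 2.84 to 3.77. For 8 neutrophil genes the ranges were 4.01 to 15.8 and 764 to 6678, and for 6 genes of the sclerotome, the tissue around the notochord, they were 125 to 173 and 6.00 to 18.7. Litter NPD30 stood apart at P0: only 2 of its 9 macrophage genes were above all E12.5 litters, against all 9 in each of the other P0 litters, whereas all 8 of its neutrophil genes were above them. Values for NPD30 alone are therefore given beside the main results.

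Lysosomes degrade proteins, glycans and lipids with hydrolases that work at acid pH, and the V-ATPase acidifies them by pumping protons through its membrane sector, V0, with energy from ATP split by its cytosolic sector, V1. Transcription factors of the MiT family, TFEB, TFE3 and MITF, bind E-box elements in the promoters of many of these genes. Embryonic notochord cells and young NP cells contain large fluid-filled vacuoles, and in the zebrafish notochord these are lysosome-related organelles whose growth depends on the proton pump and on a Rab GTPase of the Rab32 family.

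The mRNA abundance of most of these genes was higher at P0 compared to E12.5. Of the 52 members tested, 37 were significantly higher (71.2%, against 16.0% of all genes tested) and 0 were lower (against 12.0% of all genes tested), by edgeR's quasi-likelihood test at an adjusted p under 0.05. The 37 comprised 10 of 17 pump genes, 6 of 9 genes of the lysosomal membrane, 3 of 3 transcription factors, 7 of 8 cathepsins, 5 of 8 other enzymes and 6 of 7 trafficking genes. The fitted log2 fold change was above 0 in all 52, as it was in 51.6% of all genes, and its median was 1.28 over the members and 0.04 over all genes. In these bulk samples, fewer cells of a type and less RNA per cell cannot be told apart.

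The size of the difference depended on the litter. In 21 of the 52 members (40.4%, against 15.5% of all genes tested) every P0 litter lay above every E12.5 litter. Litter NPD30 lay above every E12.5 litter in 23 of the 52 (44.2%, against 29.5% of all genes tested). With NPD30 as the only P0 litter the median log2 fold change was 0.42 over the members and -0.00 over all genes. Without NPD30 these medians were 1.38 and -0.01. In that fit 42 members were called higher, and 2586 genes over all, against 2468 genes with all litters. Leaving out each of the 8 litters in turn kept 27 of the 37 calls in every fit. A further setting left out the E12.5 litters NDP10.2 and NPD9.2, because fewer of their reads fell on single genes. With fewer litters in the fit, 15 members were called higher, and 1493 genes over all.

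**Figure D1:**
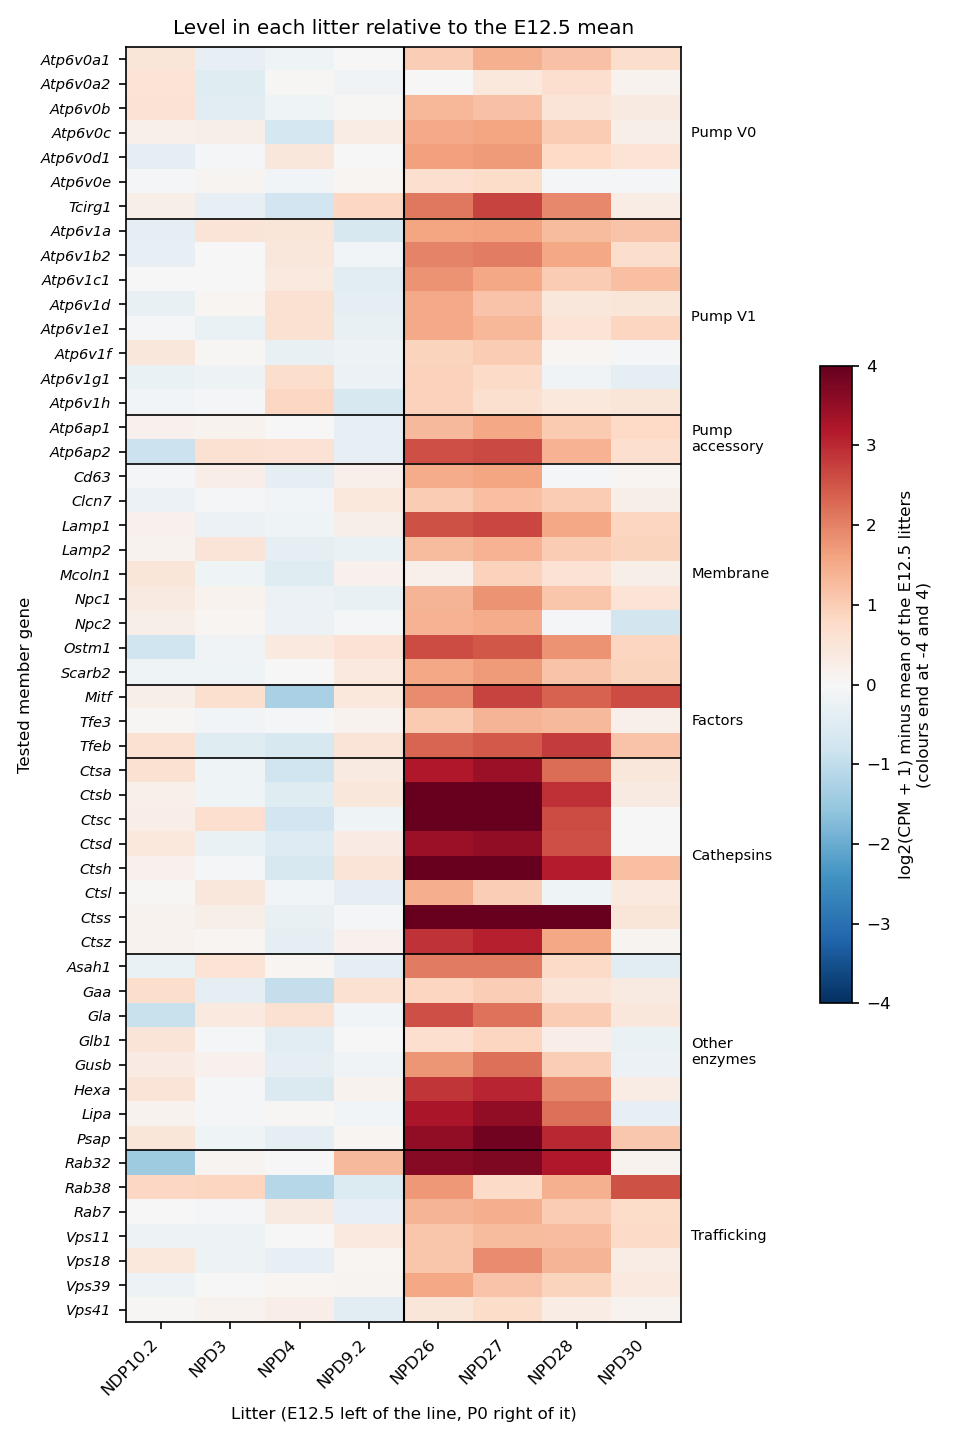
Level of the 52 tested members (rows, grouped by role) in each of the 8 litters (columns), as log2(CPM + 1) minus the mean of the 4 E12.5 litters, with red above and blue below that mean. Ctsb, Ctsc and Ctss are dark red in NPD26 and NPD27 and pale in NPD30, whereas Mitf and Rab38 are red in NPD30 as well.

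The 3 MiT family factors among the members were higher at P0. Mitf, known for its roles in melanocytes and osteoclasts, stood at 10.1, 13.9, 2.90 and 11.8 CPM at E12.5 and at 34.6, 61.3, 48.1 and 57.2 CPM at P0. Tfeb, the best known activator of lysosomal genes, stood at 8.96, 3.71, 3.26 and 8.36 CPM at E12.5 and at 31.8, 35.2, 45.1 and 13.5 CPM at P0. Tfe3, its close relative, stood at 38.2, 34.1, 35.2 and 41.3 CPM at E12.5 and at 77.2, 97.2, 91.6 and 42.4 CPM at P0. The stages did not overlap for any of these genes, although the lowest P0 litter of Tfe3, NPD30, exceeded the highest E12.5 litter by little. The log2 fold changes were 2.39 ± 0.42 (SE, n = 4 litters a stage) for Mitf (adjusted p = 0.00229), 2.39 ± 0.46 for Tfeb (adjusted p = 0.00337) and 1.05 ± 0.27 for Tfe3 (adjusted p = 0.0143). In NPD30 alone, Mitf differed from E12.5 by 2.63 on the log2 scale (adjusted p = 0.0263), while the values were 1.22 for Tfeb and 0.24 for Tfe3 and did not pass the test. Tfec, the remaining factor of the family and no member, did not pass the filter on low counts, with 0, 0.195, 0.363 and 0 CPM at E12.5 and 32.9, 35.8, 8.12 and 1.36 CPM at P0. Melanocyte markers, 5 genes, summed to 2.06 to 6.61 CPM at E12.5 and to 3.77 to 11.8 CPM at P0, and the genes did not move together. Tyrp1, a pigment enzyme, was at 0 in every E12.5 litter and at 7.23, 4.61, 0.706 and 3.94 CPM at P0. Mlana, a melanosome protein, stood at 1.42, 0.390, 0 and 0.246 CPM at E12.5 and at 1.57, 1.73, 2.35 and 3.64 CPM at P0. Both were thus above every E12.5 litter in every P0 litter, NPD30 included, while Dct and Pmel had lower means at P0 and Tyr was at most 0.944 CPM in any litter. The part of melanocytes in the result for Mitf was not tested.

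The promoters of the members are shown because the MiT factors, which were themselves higher, bind the E-box CACGTG, most strongly in its extended form TCACGTGA. Both motifs read the same on both strands. RefSeq promoter sequences on GRCm38.p6, from 250 bases before to 50 bases after the start site, were at hand for 43 of the 56 members. CACGTG stood in the promoters of 13 of these 43 genes (30.2%), compared to 8.09% of the 27025 genes in the table and 11.3% of those tested here. TCACGTGA, which always contains CACGTG, stood in 8 of the 43 (18.6%), compared to 1.12% and 2.07%. Among the members with a promoter sequence, 7 of the 29 called higher (24.1%) and 6 of the 14 others (42.9%) held CACGTG. For TCACGTGA the order was the other way, with 6 of the 29 (20.7%) and 2 of the 14 (14.3%). Neither motif was limited to the genes that were higher, and these shares were not tested. A match is a description of the sequence and not of binding. Examples follow, 5′ to 3′ on the strand of the gene, with the E-box in capitals and, where it is extended, all of its letters in capitals. The longer stretches lie upstream of the RefSeq start site, that of Atp6v1a inside a longer gene model of Gencode, and the 30-base stretches lie where Gencode annotates a UTR of the gene itself or, for Gla, of the neighbour Hnrnph2.
Lamp1 (chr8:13159061-13159160, + strand, 4 copies): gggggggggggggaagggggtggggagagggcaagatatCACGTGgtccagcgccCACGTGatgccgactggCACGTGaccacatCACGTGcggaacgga
Atp6v1a (chr16:44139338-44139437, - strand): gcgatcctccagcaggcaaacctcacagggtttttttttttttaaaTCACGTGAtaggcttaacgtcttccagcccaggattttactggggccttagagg
Clcn7 (chr17:25133291-25133390, + strand): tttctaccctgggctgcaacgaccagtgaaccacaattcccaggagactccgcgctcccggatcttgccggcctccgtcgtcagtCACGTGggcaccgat
Ctsa (chr2:164833743-164833772, + strand): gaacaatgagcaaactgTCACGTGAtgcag
Ctsd (chr7:142387908-142387937, - strand): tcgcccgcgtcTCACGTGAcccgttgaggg
Gla, distal copy (chrX:134601215-134601244, - strand): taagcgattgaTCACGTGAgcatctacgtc
Gla, proximal copy (chrX:134601182-134601211, - strand): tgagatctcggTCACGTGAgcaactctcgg
Mcoln1 (chr8:3500462-3500491, + strand): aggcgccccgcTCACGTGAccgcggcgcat

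The Lamp1 stretch holds 4 E-boxes, at 61, 45, 28 and 15 bases before the start site. The E-box of Atp6v1a lies 131 bases before the start site and that shown for Ctsd 98 bases before it. Lamp1, Atp6v1a, Clcn7, Ctsa, Ctsd and Gla were higher at P0, whereas Mcoln1, a lysosomal calcium channel, did not pass the test (log2 fold change 0.50, adjusted p = 0.242). Of the members with CACGTG that are not shown, Atp6v0d1 was higher, while Atp6v0b, Atp6v0e, Ctsl, Gaa and Glb1 did not pass the test.

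The membrane sector of the proton pump was represented by 7 tested genes, of which 4 were higher. Its largest subunit, a, anchors the pump in a given compartment and comes in 4 isoforms. Atp6v0a1 stood at 150.3, 85.1, 96.7 and 109.7 CPM at E12.5 and at 213, 294, 247 and 178 CPM at P0. Tcirg1, the isoform of osteoclasts and of lysosomes in many cells, stood at 37.5, 25.0, 18.4 and 57.5 CPM at E12.5 and at 139.6, 213, 122 and 39.1 CPM at P0. The stages were separate for Atp6v0a1, while the NPD30 value of Tcirg1 lay inside its E12.5 range. The log2 fold changes were 1.08 ± 0.26 for Atp6v0a1 (adjusted p = 0.00978) and 1.90 ± 0.50 for Tcirg1 (adjusted p = 0.0175), and in NPD30 alone they were 0.74 and 0.24. The call of Tcirg1 was lost when the E12.5 litter NPD3 was left out (adjusted p = 0.0592). Atp6v0a2, the isoform of the Golgi, stood at 39.2, 18.7, 27.2 and 23.9 CPM at E12.5 and at 26.1, 35.3, 42.4 and 29.1 CPM at P0, and the ranges overlapped (log2 fold change 0.29 ± 0.28, adjusted p = 0.477). Atp6v0a4, the kidney isoform, had 8, 1, 5 and 4 counts at E12.5 and 5, 8, 0 and 0 counts at P0, and reached at most 1.89 CPM.

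The d subunit joins the 2 sectors, and its common isoform Atp6v0d1 stood at 58.7, 72.4, 105 and 78.7 CPM at E12.5 and at 241, 253, 135 and 113 CPM at P0. The stages did not overlap (log2 fold change 1.23 ± 0.31, adjusted p = 0.0134). Its counterpart Atp6v0d2, known from osteoclasts and macrophages, had 0, 0, 0 and 5 counts at E12.5 and 165, 151, 57 and 9 counts at P0. Atp6v0d2 was thus detected in every P0 litter, but in NPD30 it reached 1.36 CPM, close to the 1.23 CPM of the E12.5 litter NPD9.2. Atp6v0c, which forms the proton-carrying ring, stood at 12.5, 12.7, 6.17 and 13.3 CPM at E12.5 and at 32.7, 34.3, 22.5 and 12.7 CPM at P0 (log2 fold change 1.20 ± 0.37, adjusted p = 0.0340). Its NPD30 value lay inside the E12.5 range, the call was lost in 6 of the 8 fits that leave out a litter, and a pseudogene named for it could take part of its reads. The other ring subunit Atp6v0b and the small subunit Atp6v0e were not called, with log2 fold changes of 0.85 for Atp6v0b (adjusted p = 0.0579) and 0.38 for Atp6v0e (adjusted p = 0.295).

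In the cytosolic sector 4 of 8 tested genes were higher, and in all 4 NPD30 lay above every E12.5 litter. Atp6v1a, the catalytic subunit that splits ATP, stood at 76.7, 144, 141 and 63.7 CPM at E12.5 and at 299, 308, 242 and 219.5 CPM at P0. Atp6v1b2, the B subunit that binds ATP beside it, stood at 79.5, 102, 137 and 92.5 CPM at E12.5 and at 405, 418, 298 and 165 CPM at P0. Atp6v1c1, the C subunit through which the sectors come apart and rejoin, stood at 29.0, 29.3, 38.2 and 21.4 CPM at E12.5 and at 102, 86.4, 59.1 and 67.6 CPM at P0. The stages were separate for all 3 of these genes. Their log2 fold changes were 1.33 ± 0.31 for Atp6v1a (adjusted p = 0.00814), 1.65 ± 0.32 for Atp6v1b2 (adjusted p = 0.00369) and 1.42 ± 0.26 for Atp6v1c1 (adjusted p = 0.00287). In NPD30 alone they were 1.07, 0.72 and 1.23, none past the test. Atp6v1e1, a stalk subunit, was higher by 1.07 ± 0.30 on the log2 scale (adjusted p = 0.0199) and lost the call in 4 of the 8 fits that leave out a litter. Atp6v1d, Atp6v1f, Atp6v1g1 and Atp6v1h, subunits of the central and peripheral stalks and a regulatory subunit, had log2 fold changes of 0.92, 0.54, 0.34 and 0.54 and did not pass the test.

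The tissue-restricted isoforms of this sector were barely expressed. Atp6v1b1, the B subunit of kidney and inner ear, was above the floor in 1 litter, NPD27, with 1.59 CPM, had a single count in NPD3 and was at 0 in the other litters. Atp6v1c2, an isoform of C, had 0, 1, 0 and 0 counts at E12.5 and 4, 14, 15 and 6 counts at P0. Every P0 litter was therefore above every E12.5 litter for Atp6v1c2, at levels near the floor.

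Expressed as a share of CPM per kilobase of exon, Tcirg1 made up 21.9%, 25.6%, 17.4% and 37.9% of the a isoforms at E12.5 and 45.4%, 47.9%, 37.6% and 21.2% at P0. The P0 litters other than NPD30 lay between 37.6% and 47.9%, and NPD30 lay among the lower E12.5 litters. Atp6v0a1 was the most abundant a isoform in 7 of 8 litters, with 59.4% ± 5.98 (SD, n = 4) at E12.5 and 54.1% ± 9.69 at P0. The exception was NPD27, with 46.5% beside 47.9% for Tcirg1. The share of Atp6v0a2 was 14.3% ± 3.0 at E12.5 and 7.75% ± 2.58 at P0, and 10.8% in both NPD9.2 and NPD30. Atp6v1b2 made up 99.9% of the B isoforms at both stages. Atp6v0d2 made up 0.255% ± 0.510 of the d isoforms at E12.5 and 4.00% ± 2.58 at P0, and Atp6v1c2 0.422% ± 0.844 and 4.43% ± 2.47 of the C isoforms. These shares are descriptions and were not tested.

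**Figure D2:**
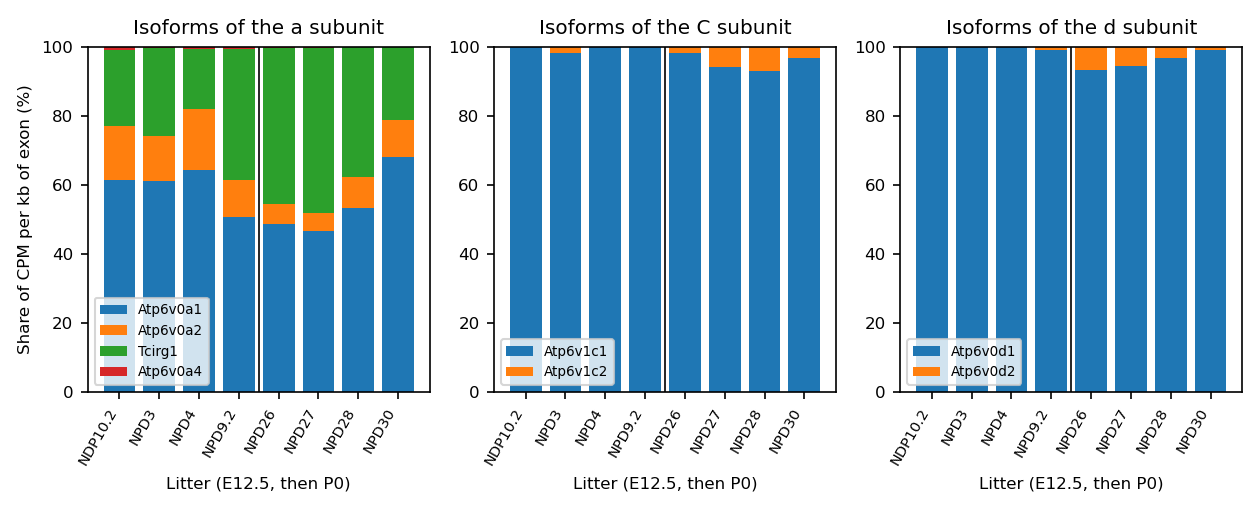
Share of each isoform in the summed CPM per kilobase of exon (vertical axis, percent) of the a, C and d subunits of the pump in each litter (horizontal axis, E12.5 left and P0 right of the line). Tcirg1 takes 37.6% to 47.9% of the a isoforms in NPD26, NPD27 and NPD28 and 21.2% in NPD30, and the second isoforms of C and d stay at 7.15% or less.

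Both accessory proteins of the pump were higher at P0. Atp6ap1, needed for assembly of V0, stood at 104, 102, 94.2 and 74.3 CPM at E12.5 and at 232, 273, 193 and 163 CPM at P0. Atp6ap2, also known as the prorenin receptor, stood at 19.8, 56.4, 55.5 and 29.0 CPM at E12.5 and at 223, 233, 97.5 and 59.4 CPM at P0. Neither gene overlapped between the stages, but the NPD30 value of Atp6ap2 was close to that of NPD3. Log2 fold changes were 1.20 ± 0.24 for Atp6ap1 (adjusted p = 0.00375) and 1.93 ± 0.49 for Atp6ap2 (adjusted p = 0.0146), and the latter call was lost without the E12.5 litter NPD9.2 (adjusted p = 0.0508).

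Of 9 genes of the lysosomal membrane and of cholesterol export, 6 were higher. Lamp1, a main glycoprotein of that membrane, stood at 208, 159, 164 and 221 CPM at E12.5 and at 1089, 1203, 542 and 339 CPM at P0. Ostm1, the partner of the chloride-proton exchanger Clcn7, stood at 4.48, 7.61, 11.5 and 13.3 CPM at E12.5 and at 58.0, 52.1, 32.3 and 16.2 CPM at P0. Scarb2, which carries glucocerebrosidase to lysosomes, stood at 24.1, 23.8, 26.6 and 35.7 CPM at E12.5 and at 80.7, 89.8, 60.6 and 50.9 CPM at P0. All P0 litters were above all E12.5 litters for each of them, with NPD30 lowest. These 3 genes gave log2 fold changes of 2.08 ± 0.40 for Lamp1 (adjusted p = 0.00341), 2.10 ± 0.45 for Ostm1 (adjusted p = 0.00561) and 1.36 ± 0.26 for Scarb2 (adjusted p = 0.00307), and 0.90, 0.85 and 0.93 in NPD30 alone. Lamp2, which also serves autophagy, was higher by 1.11 (adjusted p = 0.00996), Npc1, which moves cholesterol out of the lysosome, by 1.27 (adjusted p = 0.00815) and Clcn7 by 0.92 (adjusted p = 0.0286), all on the log2 scale. The call of Clcn7 was lost in 6 of the 8 fits that leave out a litter. Npc2, which hands cholesterol to Npc1, and the tetraspanin Cd63 were not called, with log2 fold changes of 0.80 for Npc2 (adjusted p = 0.213) and 0.95 for Cd63 (adjusted p = 0.0961). Npc2 ranged from 98.4 CPM in NPD30 to 466 CPM in NPD27, so that P0 litters lay on either side of its E12.5 range of 141 to 194 CPM.

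The cathepsins, the main lysosomal proteases, gave the largest log2 fold changes among the members and P0 litters that lay far apart. Ctss, a cysteine protease used by phagocytes in antigen presentation, stood at 6.84, 7.22, 4.71 and 5.66 CPM at E12.5 and at 706, 778, 203 and 8.79 CPM at P0. Ctsb, a cysteine protease of most tissues, stood at 233, 181, 144 and 274 CPM at E12.5 and at 3737, 4882, 1538 and 257 CPM at P0. Ctsh, an aminopeptidase, stood at 10.9, 8.98, 5.80 and 14.0 CPM at E12.5 and at 231, 224, 91.3 and 23.0 CPM at P0. NPD26, NPD27 and NPD28 were far above every E12.5 litter for these genes, whereas NPD30 was inside the E12.5 range for Ctsb and just above it for Ctss. Fitted log2 fold changes were 6.12 ± 1.11 for Ctss (adjusted p = 0.00316), 3.65 ± 0.75 for Ctsb (adjusted p = 0.00532) and 3.86 ± 0.67 for Ctsh (adjusted p = 0.00254), and 0.57, 0.35 and 1.28 in NPD30 alone. With limma-voom the log2 fold change of Ctss was 4.90 and did not pass the test (adjusted p = 0.104). Ctsc, Ctsd, Ctsa and Ctsz were higher by 3.39 (adjusted p = 0.00973), 2.84 (adjusted p = 0.00786), 2.64 (adjusted p = 0.00800) and 2.32 (adjusted p = 0.0109), and in NPD30 alone the values were -0.08, 0.02, 0.42 and 0.13. Limma-voom did not call Ctsc either (log2 fold change 2.79, adjusted p = 0.0558). Ctsl was the only cathepsin listed that did not pass the test (log2 fold change 0.76 ± 0.35, adjusted p = 0.128), with 119 CPM in NPD28 and 178 CPM in NPD30 inside its E12.5 range of 101 to 186 CPM. Over the 8 cathepsins the median log2 fold change was 3.11 with all P0 litters and 0.38 with NPD30 alone.

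Among 8 enzymes and activators of glycan and lipid breakdown, 5 were higher. Psap, the precursor of the saposins that present sphingolipids to their hydrolases, stood at 262, 167, 146 and 197 CPM at E12.5 and at 2227, 2756, 1533 and 401 CPM at P0. Lipa, the lysosomal acid lipase, stood at 50.7, 43.3, 47.8 and 42.8 CPM at E12.5 and at 454, 552, 214 and 36.7 CPM at P0. Hexa, a subunit of β-hexosaminidase, stood at 67.2, 43.9, 31.2 and 50.9 CPM at E12.5 and at 347, 393, 181 and 57.3 CPM at P0. Psap was the only gene of this group in which NPD30 lay above every E12.5 litter. Differences on the log2 scale were 3.16 ± 0.53 for Psap (adjusted p = 0.00179), 2.77 ± 0.65 for Lipa (adjusted p = 0.0104) and 2.34 ± 0.53 for Hexa (adjusted p = 0.00807), and 1.10, -0.29 and 0.30 in NPD30 alone. With limma-voom Lipa did not pass the test (log2 fold change 2.19, adjusted p = 0.0672). Gla, α-galactosidase A, and Gusb, β-glucuronidase, were higher by 1.93 (adjusted p = 0.0318) and 1.44 (adjusted p = 0.0355) and lost the call in 5 and 6 of the 8 fits that leave out a litter, and with limma-voom (adjusted p = 0.109 for Gla and 0.0892 for Gusb). Asah1, acid ceramidase, had a log2 fold change of 1.41 that did not pass the test (adjusted p = 0.0609) and reached 1.69 without NPD30 (adjusted p = 0.00413). Glb1, β-galactosidase, and Gaa, acid α-glucosidase, had log2 fold changes of 0.42 and 0.55 and did not pass the test.

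Of 7 trafficking genes, 6 were higher. Rab32 and Rab38 are closely related GTPases that direct cargo to melanosomes and other lysosome-related organelles, and their P0 litters stood in a different order. Rab32 stood at 1.18, 5.27, 4.96 and 13.5 CPM at E12.5 and at 71.4, 77.7, 53.1 and 5.46 CPM at P0. Rab38 stood at 113, 114, 28.3 and 42.8 CPM at E12.5 and at 212, 107, 172 and 377 CPM at P0. NPD30 was the lowest P0 litter for Rab32, inside its E12.5 range, and the highest for Rab38, where NPD27 was inside the E12.5 range. The log2 fold changes were 3.07 ± 0.81 for Rab32 (adjusted p = 0.0183) and 1.54 ± 0.51 for Rab38 (adjusted p = 0.0477), and -0.13 and 2.39 in NPD30 alone (adjusted p = 0.0805 for Rab38). The calls of both were fragile, with Rab32 lost in 3 and Rab38 in 7 of the 8 fits that leave out a litter, and Rab32 also with limma-voom (adjusted p = 0.125). The order of litters for Rab38 resembled that of T (brachyury), the notochord transcription factor, which stood at 942, 789.9, 242 and 362 CPM at E12.5 and at 1007, 574, 1372 and 2323 CPM at P0. Both genes were lowest in NPD4 and highest in NPD30. Of the other notochord and NP markers, Krt8 and Krt19 were so too, and Cd24a was highest in NPD30 but lowest in NPD9.2. Shh, Foxa1, Foxa2 and Krt18 were instead highest in an E12.5 litter, and Noto was at most 0.433 CPM in any litter. Whether the share of notochordal cells had a part in the result for Rab38 was not tested.

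The tethering complex HOPS brings late endosomes and lysosomes to fusion, and it shares its core subunits with the related complex CORVET. Vps18, a core subunit of both complexes, stood at 21.5, 13.7, 12.5 and 16.7 CPM at E12.5 and at 35.1, 60.9, 41.7 and 19.6 CPM at P0, with NPD30 inside the E12.5 range. Vps18 was higher by 1.29 ± 0.35 on the log2 scale (adjusted p = 0.0170) and lost the call without NPD3 or without NPD27. Rab7, the GTPase that recruits HOPS, was higher by 1.16 (adjusted p = 0.00577), Vps11, another core subunit, by 1.12 (adjusted p = 0.00561) and Vps39, a HOPS subunit, by 1.08 (adjusted p = 0.0120). In each of these 3 genes all P0 litters were above all E12.5 litters. Vps41, the partner of Vps39, had a log2 fold change of 0.42 ± 0.23 and did not pass the test (adjusted p = 0.208). Of the core subunits outside the list, Vps33a was higher by 1.29 ± 0.35 (adjusted p = 0.0188) whereas Vps16 was not called, at -0.10 ± 0.25 (adjusted p = 0.818).

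**Figure D3:**
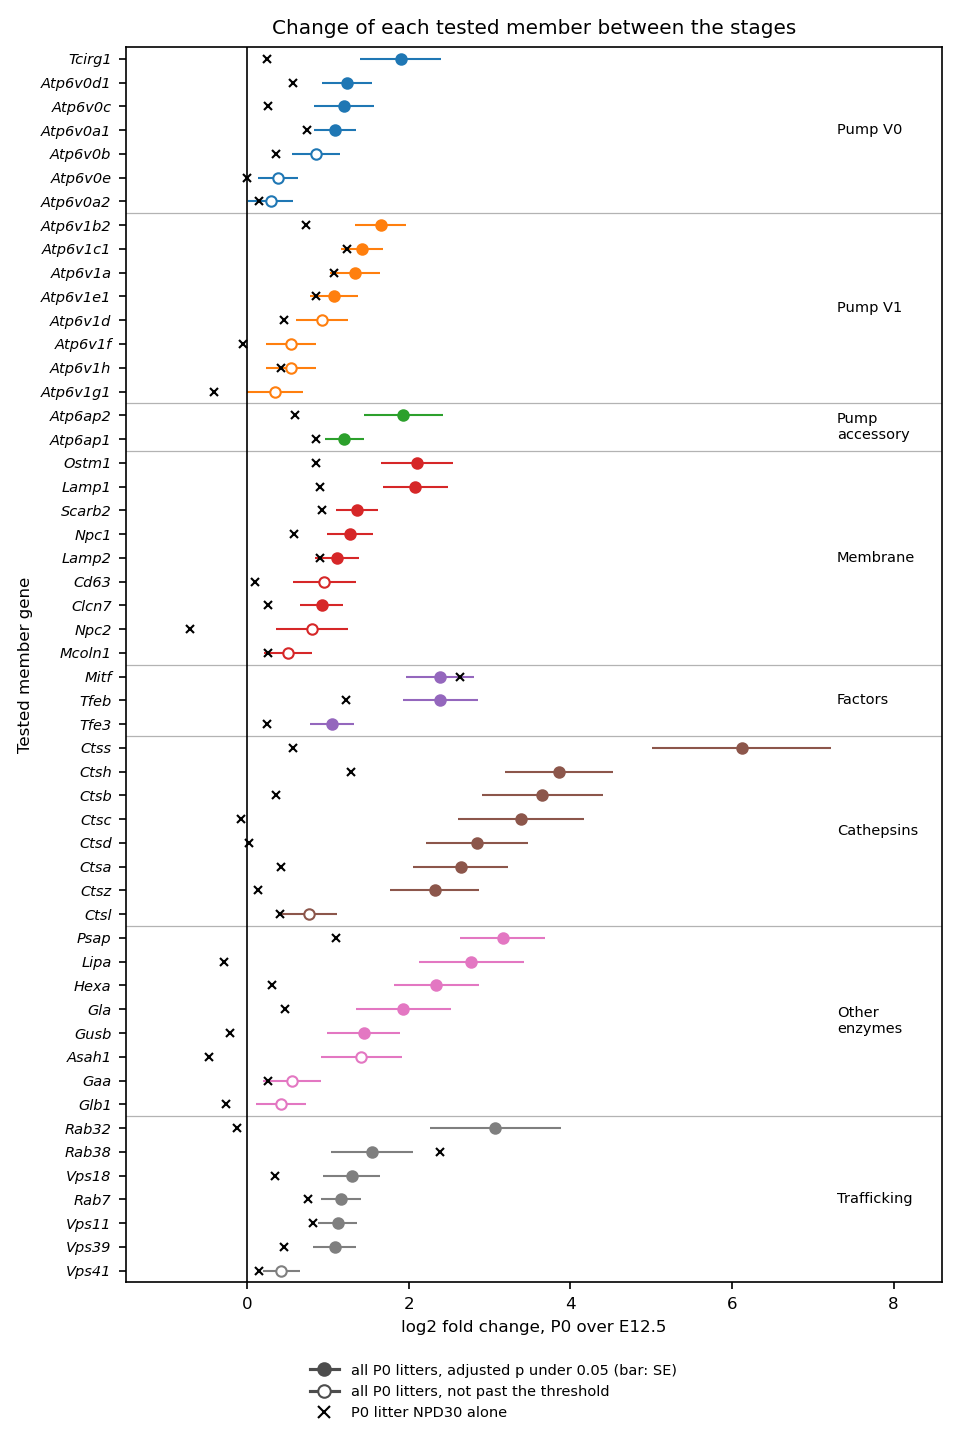
Log2 fold change of the 52 tested members (vertical axis, grouped by role) between P0 and E12.5 (horizontal axis), with circles for all 4 P0 litters, bars for the standard error, filled circles for an adjusted p under 0.05 and crosses for NPD30 alone. The crosses of the cathepsins other than Ctsl lie far to the left of their circles (0.57 against 6.12 for Ctss), and those of Mitf and Rab38 lie to the right of theirs.

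Across all members, the 15 that did not pass the test had log2 fold changes from 0.29 to 1.41 and adjusted p-values from 0.0535 to 0.518. DESeq2 on the same litters called 3 of these 15, with adjusted p-values of 0.0410 for Atp6v0b, 0.0387 for Atp6v1d and 0.0214 for Asah1, and 5 of the 15 passed edgeR's test without NPD30. The missing call does not show equal levels.

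Compared per kilobase of exon, the order of the members differed between the stages. At E12.5 the highest mean levels were those of Psap (70.4 CPM per kilobase), Lamp1 (70.3), Ctsd (59.1) and Atp6v1g1 (53.1). At P0 they were those of Psap (630), Ctsb (430), Ctsd (423) and Ctss (312). Ctss thus moved from 4.50 CPM per kilobase at E12.5 to the fourth highest level at P0, but in NPD30 it stood at 6.48. Psap, Ctsb and Ctsd were lowest of the P0 litters in NPD30 too, at 146, 42.4 and 57.7, and Rab38 stood there at 239. Within the pump, Atp6v0d1 (103) and Atp6v0b (80.2) led at P0, and Atp6v1g1 (53.1) and Atp6v0b (44.4) at E12.5. Neighbours in these orders differ by less than the spread between litters. The exon lengths include long 3′ ends that a library may cover unevenly.

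The members were set beside the marker lists litter by litter. Macrophage markers had a mean log2 CPM of 2.94, 2.84, 2.87 and 3.77 at E12.5 and of 9.22, 9.42, 7.85 and 2.86 at P0. Leukocyte markers, 8 genes of white blood cells, had 1.93, 2.13, 2.01 and 3.09 at E12.5 and 7.58, 7.79, 8.09 and 4.62 at P0. Neutrophil markers had -0.59, 0.62, 0.03 and 0.60 at E12.5 and 6.06, 6.11, 8.05 and 6.37 at P0. By these means NPD30 was inside the E12.5 range for macrophage markers, above it for leukocyte markers and far above it for neutrophil markers. The macrophage genes of NPD30 did not move together. C1qa (2.88 CPM), C1qb (4.85), C1qc (2.12) and Mrc1 (6.06) were below every E12.5 litter. Lyz2 and Csf1r were above every E12.5 litter, and Cd68, Adgre1 and Fcgr1 lay inside the E12.5 range. In the macrophage list NPD26 and NPD27 were highest, NPD28 was between them and NPD30, and NPD30 was lowest of the P0 litters. The P0 litters stood in this order in 36 of the 52 tested members (69.2%, against 12.3% of all genes tested). Among these were Ctss, Ctsc, Ctsb and Rab32. Their log2 fold changes without NPD30 and with NPD30 alone differed most, by 5.93, 3.82, 3.64 and 3.54. Both the order and this difference use the NPD30 values, so their overlap was partly set in advance. Cells were sorted for YFP at P0 and not at E12.5, so for these markers too stage and isolation method cannot be told apart. The part of macrophages in these results was not tested. Osteoclast markers had a mean log2 CPM of at most 0.71 at E12.5 and of 3.32, 4.06, 3.31 and 1.14 at P0. Of these 7 genes, 3 were tested and higher, Acp5, Mmp9 and Tnfrsf11a. Mmp9 was highest in NPD28 (1059 CPM), as was the mean of the neutrophil markers. Ocstamp, Dcstamp, Oscar and Calcr reached at most 6.06 CPM and were not tested. Dcstamp, needed for osteoclast fusion, was at 0 in every E12.5 litter and in NPD30. Cartilage markers, 7 genes of which none was at 0 throughout a stage, had a mean log2 CPM of 5.47 to 7.04 at E12.5 and of 5.32 to 6.85 at P0. These genes did not move together. Acan and Matn3 were higher at P0 by 1.99 (adjusted p = 0.0422) and 2.64 (adjusted p = 0.00922), and Col9a1 differed by -2.94 (adjusted p = 0.00158). Col2a1, Sox9 and Comp did not pass the test, and Matn1 was not tested. The 23 members in which NPD30 lay above every E12.5 litter (44.2%, against 29.5% of all genes tested) included Mitf, Tfeb, Atp6v1a, Atp6v1c1, Lamp1, Lamp2, Psap and Rab38. All 8 leukocyte and all 8 neutrophil markers lay above every E12.5 litter in NPD30 too, as did Lyz2, a macrophage marker, with 244 CPM against at most 69.6 CPM at E12.5.

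**Figure D4:**
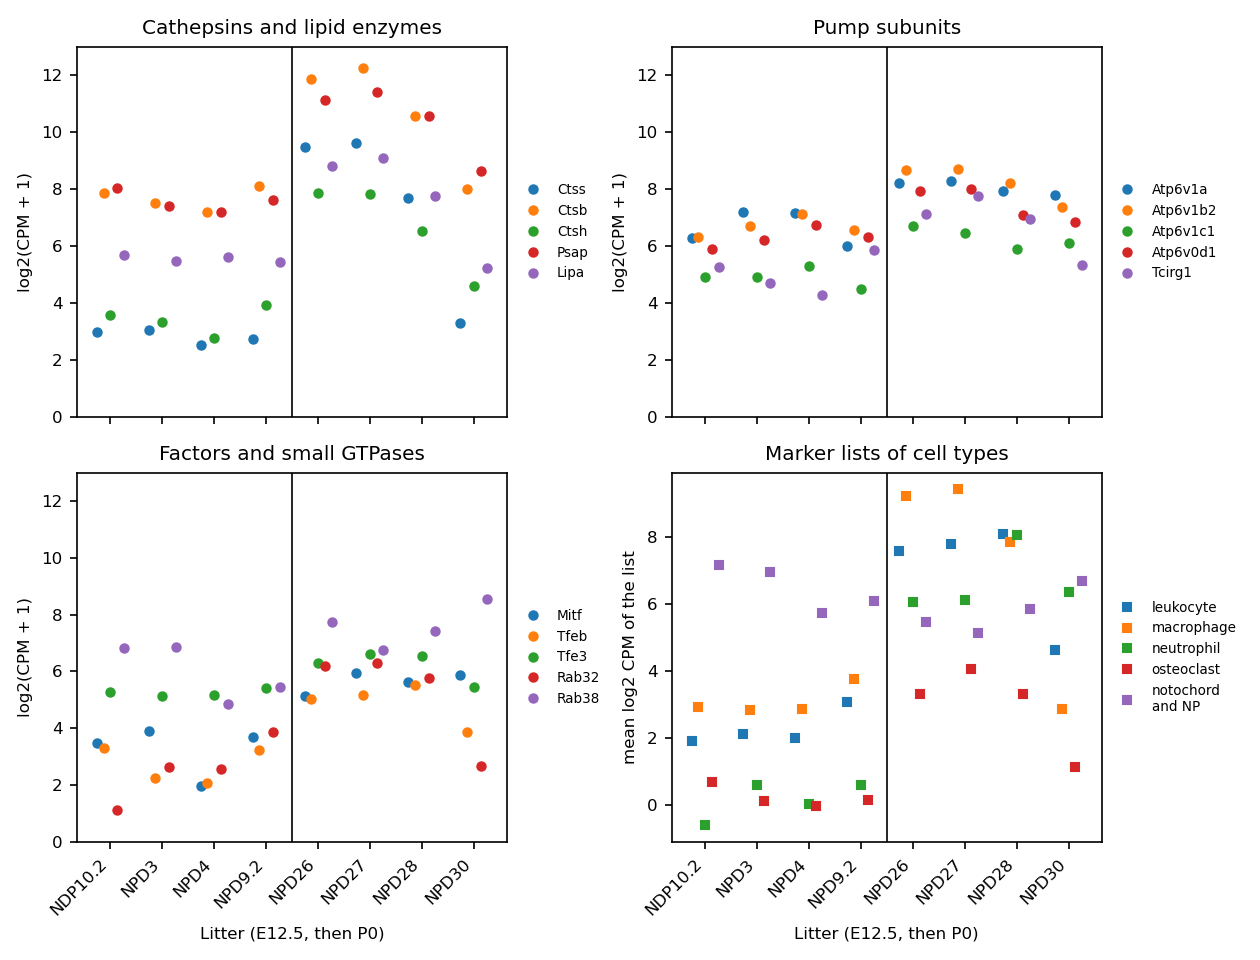
Levels in each litter (horizontal axis, E12.5 left and P0 right of the line) of 15 members as log2(CPM + 1) in 3 panels and of 5 marker lists as mean log2 CPM in the last panel, with points set slightly apart sideways so that none is hidden. In NPD30 the mean of the macrophage markers (2.86) and Ctss and Ctsb are near the E12.5 level, while the mean of the neutrophil markers (6.37), Mitf and Rab38 are not.

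The wider pathway was followed with 113 further genes, listed with earlier results of these data known. Of the 105 tested, 51 were higher (48.6%, beside the 16.0% of all genes tested) and 3 were lower (2.9%, beside 12.0%). Of 34 other hydrolases and activators 26 were higher, led by adjusted p by Ctsk, the collagen-cleaving cathepsin of osteoclasts, Gm2a, the activator of hexosaminidase, and Naaa, an acid amidase. Ctsk stood at 8.02, 15.6, 7.50 and 5.66 CPM at E12.5 and at 196, 119.8, 76.3 and 103 CPM at P0. Unlike the member cathepsins other than Ctsl, Ctsk in NPD30 lay among the other P0 litters (log2 fold change 3.74, adjusted p = 0.000206, and 3.52 in NPD30 alone). Gm2a and Naaa were higher by 2.59 (adjusted p = 0.000294) and 2.41 (adjusted p = 0.000811).

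Of 22 tested membrane and sorting genes outside the list, 9 were higher and 2 were lower. Tmem192, a protein of the lysosomal membrane, Slc36a1, an amino acid exporter, and M6pr, the smaller mannose 6-phosphate receptor, were higher by 2.13 (adjusted p = 0.000702), 1.70 (adjusted p = 0.000976) and 1.76 (adjusted p = 0.00244). Igf2r, the larger mannose 6-phosphate receptor, was lower at P0, with 373, 278, 177 and 343 CPM at E12.5 and 38.4, 73.5, 122 and 127 CPM at P0. The log2 fold change of Igf2r was -1.70 (adjusted p = 0.00800), and -1.15 in NPD30 alone. The 2 receptors that deliver hydrolases to lysosomes thus moved in opposite directions. Laptm4b, a membrane protein of late endosomes, was lower too (log2 fold change -0.70, adjusted p = 0.0453). The call of Laptm4b held in 1 of the 8 fits that leave out a litter.

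Of 8 tested further subunits and assembly factors of the pump 3 were higher, namely Dmxl2 (1.61, adjusted p = 0.00852), Atp6v1g2 (1.56, adjusted p = 0.0149) and Wdr7 (0.79, adjusted p = 0.0302). Dmxl2 and Wdr7 encode the subunits of rabconnectin, which helps V1 to join V0. The call of Wdr7 held in 2 of the 8 fits that leave out a litter. Of 27 tested trafficking genes 8 were higher, led by Hps3 (1.81, adjusted p = 0.00502), a gene of lysosome-related organelle biogenesis. Next were Arl8b (1.14, adjusted p = 0.0130) and Arl8a (1.32, adjusted p = 0.0163), which move lysosomes along microtubules. In NPD30 alone the log2 fold changes of Hps3, Arl8b and Arl8a were 0.70, 0.81 and 0.93. Among 14 tested genes that control TFEB and mTORC1, the growth-regulating kinase complex that docks on lysosomes, 5 were higher and 1 was lower. Rragc, a GTPase of the docking site, and Fnip1 and Fnip2, partners of folliculin, were higher by 1.63 (adjusted p = 0.00156), 1.60 (adjusted p = 0.00712) and 1.24 (adjusted p = 0.0167). In NPD30 alone the values were 1.07, 0.75 and 0.44. Rptor, the scaffold of mTORC1, was lower (log2 fold change -0.81, adjusted p = 0.0297). The call of Rptor held in 3 of the 8 fits that leave out a litter.

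Some of the members share exonic bases with a neighbouring gene, and the strand setting of the counting was not given in the sources used here. The largest shares were those of Ctsb (12.8% with Fdft1), Hexa (12.8% with Tmem202), Atp6v0b (11.8% with the antisense gene Gm12841), Ctsa (10.5% with Pltp) and Lamp1 (9.3% with Grtp1), all on the opposite strand. Counts of these genes can miss reads of the shared bases or hold reads of the neighbour.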

How the data were processed

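RNA of 4 E12.5 and 4 P0 litters was sequenced as single-end reads from TotalScript libraries. The authors aligned the reads with STAR 2.4.0j to GRCm38 and deposited raw counts per gene from htseq-count on Gencode M4. Stage was taken from the labels. Genes were named and their exon lengths and positions taken from Gencode M21, a later annotation of the same build, and 42462 of 43346 identifiers had a symbol. Rows that name no gene were left out: 22.6% to 34.8% of the tallied reads fell on single genes.

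The counts were tested in R 4.3.3 with edgeR 4.0.16 (TMM, filterByExpr with a minimum count of 10 and a minimum total of 15, robust quasi-likelihood F-test, Benjamini-Hochberg adjustment over all genes tested). The threshold for a call was an adjusted p of 0.05. Standard errors were obtained as the absolute log2 fold change over the root of F. CPM uses TMM library sizes, and log2 CPM a prior count of 2. The scripts were tested on simulated data. Members, pathway lists and marker lists were chosen with earlier results of these data known. Every called member is named, and values in each litter are given for the 3 with the largest change in each role, the isoforms, the factors, Rab32 and Rab38. Of the further pathway genes, up to 3 per list and direction with the smallest adjusted p are named. Single markers of cell types, such as T, Tyrp1, Mlana and Lyz2, were named after their values were seen. So were Tfec, Vps16, Vps33a and the members listed for their order across litters. Alternatives were DESeq2 1.42.0, limma 3.58.1 (voom), other scalings, no filter, mitochondrial and hemoglobin genes left out, each litter left out in turn, and NPD30 as the only P0 litter. Leaving out NDP10.2 and NPD9.2 together was chosen after the data were seen. Litters differ between the stages, so the p-values measure the spread between litters.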

Additional observations from a re-analysis of the deposited data

Results flagged for a closer look

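The 4 values of each member at each stage were examined for a litter far from the others by Dixon's ratio, the gap to the nearest litter divided by the range on the log2 CPM scale, which passes its 95% critical value in about 1 in 20 groups by chance. Of 112 such groups, 8 passed. Among members with ample counts, NPD4 was the lowest E12.5 litter for Atp6v0c (ratio 0.921, log2 CPM 2.70 against 3.68 to 3.77) and for Ctsz (ratio 0.853, 5.65 against 6.15 to 6.23) and the highest for Atp6v1g1 (ratio 0.919, 6.57 against 5.58 to 5.66). Rab32 in NPD30 was the only member flagged at P0 among those tested (ratio 0.854, log2 CPM 2.53 against 5.74 to 6.29). The remaining 4 ratios were 1 and came from genes with 0 counts in the other litters of the group: Atp6v0d2 in NPD9.2, Atp6v1b1 in NPD3 and in NPD27, and Atp6v1c2 in NPD3. With a few counts behind each, these ratios say little.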

How the results depend on the processing

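The number of members called higher, 37, lay between 29 and 42 over the fits that each leave out 1 litter and between 31 and 40 under DESeq2, limma-voom, DESeq2 size factors, upper quartile scaling, no filter and no mitochondrial or hemoglobin genes, and the number lower was 0 under each of these. Over all genes the leave-one-out ranges were 2084 to 2586 higher and 1512 to 1943 lower. With NPD30 as the only P0 litter the counts were 1 member higher, and 632 genes higher and 422 lower over all genes. Of the 37 calls, 33 kept a value above 0 there and 10 had an unadjusted p under 0.05. That fit assumes that NPD30 varies like the E12.5 litters. With NDP10.2 and NPD9.2 left out the counts were 15 members higher, and 1493 genes higher and 1088 lower, with fewer litters in the fit, and 13 of the 37 calls remained. The log2 fold changes that turned negative with NPD30 alone were those of Atp6v0e (-0.0013), Atp6v1f (-0.05), Atp6v1g1 (-0.41), Npc2 (-0.71), Ctsc (-0.08), Glb1 (-0.26), Gusb (-0.21), Lipa (-0.29), Asah1 (-0.48) and Rab32 (-0.13), and the cause was not tested. Of the calls that rest on single litters, those of Atp6v0c and Gusb held only without NPD28 or NPD30, that of Clcn7 only without NPD9.2 or NPD30, that of Gla only without NPD4, NPD28 or NPD30 and that of Rab38 only without NPD27, while Atp6v1e1 was lost without NDP10.2, NPD3, NPD9.2 or NPD26 and Rab32 without NPD3, NPD4 or NPD27. Without NPD30, Atp6v0b, Atp6v1d, Asah1, Cd63 and Npc2 passed the test. Limma-voom did not call Ctss, Ctsc, Gla, Gusb, Lipa and Rab32. Upper quartile scaling moved the median log2 fold change of all genes from 0.036 to -0.11. Without division by exon length the P0 share of Atp6v1c2 was 1.78% in place of 4.43%. No paired analysis was possible because no litter contributed to both stages.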
